A study of Mus musculus with 26 samples.

Results

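A group of 10 genes that carry glucose from the cell surface to lactate was followed in mouse epididymal fat: Slc2a1, which encodes the glucose transporter GLUT1, and the glycolytic genes Hk1, Hk2, Pfkl, Pfkp, Pfkfb3, Aldoa, Pgk1, Pkm and Ldha. They were taken by exact match of the gene symbol, which found 10 of 10 listed genes among the 39017 genes of each deposited count table. RNA was sequenced from adipocytes and from stromal vascular cells (SVC), the non-adipocyte cells released when the fat pad is digested. The mice were male C57BL/6J kept in groups, 9 to 10 weeks old at the start, and every group was fed for 12 weeks in all. LFD mice ate a diet with 10% fat for 12 weeks, and HFD mice ate a diet with 60% fat for 12 weeks. SW mice ate the HFD diet for 9 weeks and were then switched to the LFD diet for 3 weeks. The design asks which genes differ between lean and obese fat and which of these differences persist after the return to the lean diet.

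Adipocyte libraries numbered 3 in each diet group (LFD 404, 405 and 406, HFD 401, 402 and 403, SW 407, 408 and 409). SVC libraries that could be assigned to a diet numbered 2 in HFD (212 and 411), 1 in LFD (236) and 3 in SW (412, 413 and 414). Values below follow this order of libraries. Total counts per adipocyte library were 6142895, 19720207 and 7510142 in LFD, 12223677, 23725647 and 22162837 in HFD and 11314661, 16271834 and 13722008 in SW. For SVC they were 13106471 and 17818059 in HFD, 5781902 in LFD and 10155860, 22195810 and 10121939 in SW. The shallowest library thus held 5781902 counts and the deepest 23725647. Levels are given as CPM, the standard unit of counts scaled to library size, here after adjustment by TMM factors, which correct for a few genes taking a large share of a library. A count of 0 would allow a level of up to 0.126 to 0.519 CPM depending on the library, by counting error alone. This floor is scaled to total counts, before the TMM adjustment. Each of the 10 genes was well above this floor: the lowest count of any of them was 84 in adipocytes (Slc2a1, LFD 406) and 26 in SVC (Hk2, SW 414). The 10 genes together took 0.262% to 0.417% of a library's counts.

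Several SVC libraries stood apart from others of their diet group. Mitochondrial genes took 33.5% of the counts of SVC HFD 411, against 6.34% in the other HFD library, 4.36% in LFD and 5.64%, 5.77% and 9.54% in SW. Summed transcripts of 8 male germ cell genes, a list chosen after the values were seen, reached 895, 1020 and 45.0 CPM in SVC SW, 8.32 and 34.8 in HFD and 28.8 in LFD. Libraries 412 and 413 were thus the high ones, with Prm2 the most abundant gene and none of the 8 at 0 in either. Adipocyte libraries held 4.60, 0.967 and 2.38 CPM of these genes in LFD, 0.671, 0.266 and 1.94 in HFD and 5.06, 16.1 and 18.6 in SW, so SW was the highest group in both fractions. A second added list, 10 genes of the epididymal epithelium, summed to 9.55 and 195 CPM in SVC HFD, 175 in LFD and 19.98, 21.5 and 8.49 in SW, and stayed between 0.0759 and 9.06 CPM in adipocytes. Each SVC comparison was therefore also run without libraries 412 and 413.

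In glycolysis a hexose enters through a facilitative transporter, is phosphorylated by a hexokinase, committed by phosphofructokinase, split by aldolase, and oxidised to pyruvate, which lactate dehydrogenase can turn into lactate. GLUT1 carries glucose independently of insulin and is found in most cells, whereas fat cells also hold GLUT4 (Slc2a4), the transporter that insulin brings to the surface. Adipocytes are known to release much of the glucose they take up as lactate and to use glycolytic intermediates for the glycerol backbone of triglyceride, and macrophages that enter obese fat are known for active glycolysis.

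Slc2a1 (ENSMUSG00000028645, chr4:119108711-119137983, plus strand, in the GRCm38 annotation) encodes the insulin-independent transporter at the entry of the pathway. In adipocytes its level was 12.4, 12.4 and 9.98 CPM in LFD, 19.7, 14.4 and 16.7 in HFD and 13.2, 15.3 and 15.2 in SW. Each HFD and each SW library lay above each LFD library, while HFD and SW overlapped. Group means were 11.6 ± 1.40 CPM in LFD, 17.0 ± 2.67 in HFD and 14.6 ± 1.19 in SW (SD, n = 3 each). SVC held 23.97 and 23.3 CPM in HFD, 26.9 in LFD and 28.9, 27.5 and 25.9 in SW. Every SVC library lay above every adipocyte library, and within SVC the SW libraries lay above the HFD libraries by a narrow margin.

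The hexokinases trap glucose in the cell by phosphorylating it. Hk1 (ENSMUSG00000037012), the widespread isozyme, stood at 38.1, 34.4 and 30.7 CPM in LFD adipocytes, 53.7, 36.3 and 51.1 in HFD and 26.1, 33.0 and 31.4 in SW. The SW libraries lay below all 3 HFD libraries, and HFD 402 lay inside the LFD range. In SVC Hk1 was 63.3 and 73.8 CPM in HFD, 172 in LFD and 195, 199 and 143 in SW, so that the HFD libraries were the low ones and no SVC library overlapped any adipocyte library. Hk2 (ENSMUSG00000000628), the isozyme that dominates insulin-sensitive tissues, showed the opposite split between fractions. Its adipocyte level was 48.9, 42.1 and 48.8 CPM in LFD, 23.4, 46.1 and 31.9 in HFD and 30.5, 35.9 and 42.3 in SW. The diet groups overlapped, with HFD 401 lowest. SVC held only 9.92 and 5.79 CPM of Hk2 in HFD, 6.28 in LFD and 3.51, 6.17 and 3.40 in SW, all below the lowest adipocyte library.

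Phosphofructokinase commits the sugar to glycolysis and is built from subunits with different tissue patterns. The liver-type subunit gene Pfkl (ENSMUSG00000020277) was at 88.0, 79.7 and 100.3 CPM in LFD adipocytes, 60.4, 101 and 73.2 in HFD and 71.5, 63.1 and 90.0 in SW. Its adipocyte groups overlapped throughout. SVC held 28.8 and 54.1 CPM of Pfkl in HFD, 95.8 in LFD and 60.2, 55.9 and 67.6 in SW. The HFD library 212 was the lowest of the 15 libraries for this gene. For the platelet-type subunit gene Pfkp (ENSMUSG00000021196) the adipocyte levels were 81.3, 74.0 and 71.0 CPM in LFD, 96.5, 95.8 and 90.5 in HFD and 82.6, 76.1 and 89.2 in SW. HFD was the highest group and overlapped with neither LFD nor SW, whereas LFD and SW overlapped with each other. Pfkp in SVC was 99.5 and 78.2 CPM in HFD, 164 in LFD and 122, 125 and 119 in SW, so SVC HFD was the low group there.

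Pfkfb3 (ENSMUSG00000026773) encodes a bifunctional enzyme that makes fructose 2,6-bisphosphate, the activator of phosphofructokinase. Its adipocyte level was 391, 313 and 359.9 CPM in LFD, 198, 407 and 359 in HFD and 186, 292 and 329 in SW. HFD 401 and SW 407 were low within groups that otherwise overlapped. SVC held 47.5 and 34.0 CPM in HFD, 41.8 in LFD and 34.5, 38.1 and 30.3 in SW. The highest SVC library was thus far below the lowest adipocyte library.

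Aldolase A and phosphoglycerate kinase 1 act in the middle of the pathway, the first splitting the hexose and the second making ATP. Aldoa (ENSMUSG00000030695) stood at 1145, 1124 and 1135 CPM in LFD adipocytes, 766, 1190 and 1022 in HFD and 1369, 1212 and 1241 in SW. The SW libraries were the highest and overlapped with no other adipocyte library, while the HFD libraries spread to both sides of a tight LFD group. SVC Aldoa was 607 and 918 CPM in HFD, 1360 in LFD and 1676, 1384 and 1621 in SW, with HFD lowest. Pgk1 (ENSMUSG00000062070) was at 183, 175 and 178 CPM in LFD adipocytes, 249, 276 and 272 in HFD and 261, 228 and 226 in SW. Each LFD library lay below each library of the other diets, and HFD and SW overlapped. In SVC Pgk1 was 197 and 192 CPM in HFD, 119.6 in LFD and 180.5, 172 and 218 in SW, where HFD lay inside the SW range and the LFD library was lowest.

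Pkm and Ldha close the pathway: pyruvate kinase makes pyruvate and ATP, and lactate dehydrogenase A reduces pyruvate to lactate. Pkm (ENSMUSG00000032294) was at 388, 355 and 359 CPM in LFD adipocytes, 720, 695 and 789 in HFD and 712, 630.4 and 632 in SW. Its LFD libraries were far below the rest, and the HFD and SW ranges overlapped. Means were 367 ± 17.9 CPM in LFD, 735 ± 48.7 in HFD and 658 ± 46.8 in SW (SD, n = 3 each). In SVC Pkm was 878 and 1504 CPM in HFD, 1178 in LFD and 2028, 1593 and 1896 in SW, each above every adipocyte library. Ldha (ENSMUSG00000063229) stood at 852, 758 and 805 CPM in LFD adipocytes, 627, 884 and 709 in HFD and 664, 688 and 847 in SW, with full overlap of the diets. SVC Ldha was 383 and 930.1 CPM in HFD, 340 in LFD and 792, 687 and 748 in SW, and the 2 HFD libraries lay on either side of the SW group.

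**Figure D1:**
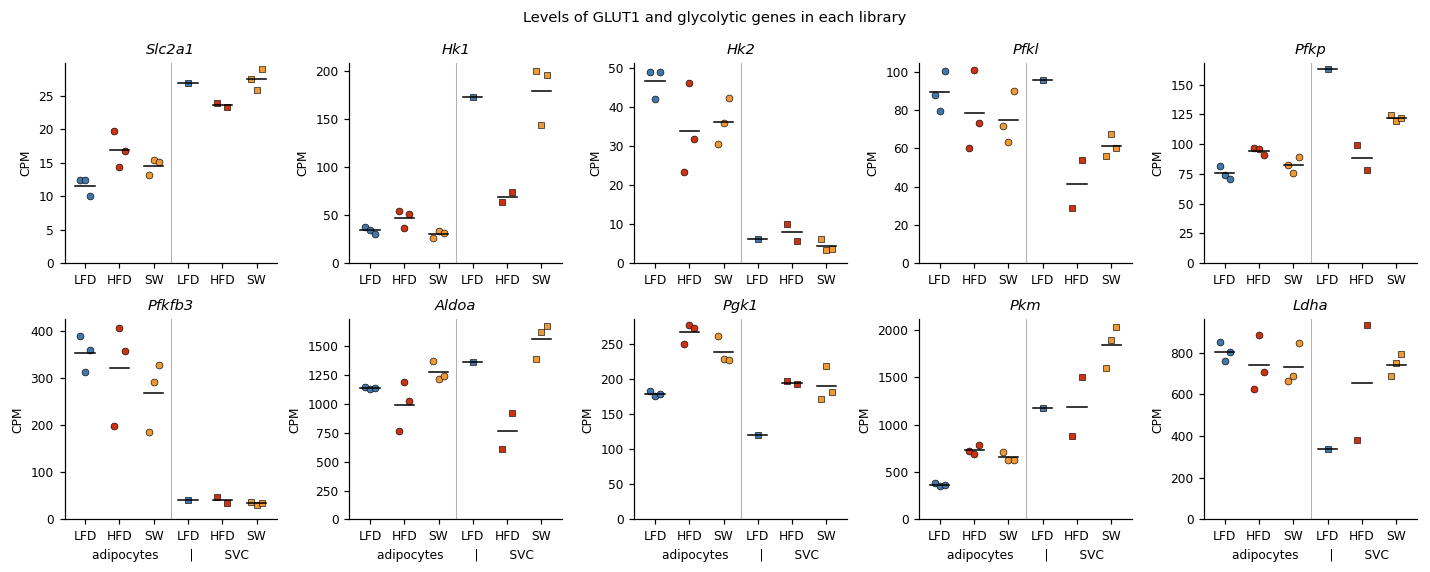
Level of each of the 10 genes in CPM on a linear axis from 0, by fraction and diet group; each point is 1 library and each bar is a group mean. Pkm in LFD adipocytes sits below the HFD and SW libraries, and Hk2 and Pfkfb3 separate the adipocyte libraries from the SVC libraries.

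Divided by the length of the longest annotated transcript (CPM per kb), the levels spanned a wide range and kept a common top in adipocytes. The place of a gene depends on that length, which was 8681 bases for Pfkp and 3730 for Pfkl. Mean CPM of Pfkp and Pfkl was 75.4 and 89.3 in LFD, 94.3 and 78.2 in HFD and 82.65 and 74.88 in SW adipocytes. Per kb, Pfkp was below Pfkl in each. Which transcripts were in use was not tested. In LFD adipocytes the order was Aldoa 733 ± 6.81, Ldha 443 ± 25.9, Pkm 151 ± 7.36, Pgk1 97.9 ± 2.04 and Pfkfb3 73.9 ± 8.12 CPM per kb (SD, n = 3), followed by Pfkl 23.9 ± 2.78, Pfkp 8.69 ± 0.608, Hk2 8.46 ± 0.712, Hk1 8.04 ± 0.866 and Slc2a1 3.56 ± 0.428. Pfkp, Hk2 and Hk1 overlapped between libraries there and cannot be ranked. HFD adipocytes gave Aldoa 641 ± 138, Ldha 408 ± 72.2, Pkm 302 ± 20.01, Pgk1 146 ± 7.94, Pfkfb3 66.9 ± 22.8, Pfkl 20.96 ± 5.55, Hk1 11 ± 2.19, Pfkp 10.9 ± 0.375, Hk2 6.13 ± 2.08 and Slc2a1 5.203 ± 0.817 CPM per kb. Within this order Hk1 and Pfkp overlapped, as did Hk2 and Slc2a1. In SW adipocytes the order was Aldoa 822 ± 53.9, Ldha 404 ± 54.9, Pkm 271 ± 19.3, Pgk1 131 ± 10.8, Pfkfb3 56.0 ± 15.4, Pfkl 20.1 ± 3.69, Pfkp 9.52 ± 0.759, Hk1 7.05 ± 0.84, Hk2 6.57 ± 1.07 and Slc2a1 4.47 ± 0.363 CPM per kb, with Hk1 and Hk2 overlapping. Slc2a1 thus had the lowest group mean of the 10 per kb in each adipocyte group, with Hk2 below it in HFD 401, and Aldoa had the highest.

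Pkm ranked above Ldha per kb in SVC, the reverse of adipocytes. SVC SW libraries gave Aldoa 1007 ± 100.4, Pkm 756 ± 91.8, Ldha 409 ± 29.1, Pgk1 104 ± 13.5, Hk1 41.9 ± 7.30, Pfkl 16.4 ± 1.58, Pfkp 14.1 ± 0.322, Slc2a1 8.42 ± 0.470, Pfkfb3 7.14 ± 0.808 and Hk2 0.791 ± 0.284 CPM per kb (SD, n = 3). No neighbours in that order overlapped, although Slc2a1 and Pfkfb3 came within a narrow margin. In SVC HFD the order was Aldoa 492 ± 142, Pkm 489.8 ± 182, Ldha 362 ± 213, Pgk1 107 ± 1.66, Hk1 16.0 ± 1.73, Pfkl 11.1 ± 4.80, Pfkp 10.2 ± 1.73, Pfkfb3 8.48 ± 1.996, Slc2a1 7.24 ± 0.154 and Hk2 1.43 ± 0.529 CPM per kb (SD, n = 2). Aldoa, Pkm and Ldha overlapped between those 2 libraries. So did the neighbours Pfkl and Pfkp, Pfkp and Pfkfb3, and Pfkfb3 and Slc2a1, while Slc2a1 lay below Pfkl and Pfkp. The LFD library gave Aldoa 878, Pkm 484, Ldha 187, Pgk1 65.5, Hk1 40.3, Pfkl 25.7, Pfkp 18.9, Pfkfb3 8.71, Slc2a1 8.24 and Hk2 1.14 CPM per kb. Hk2 was the lowest of the 10 in each SVC group.

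The first comparison asks what obesity does to these genes in adipocytes. Pkm was 1.98-fold higher in HFD than in LFD, Pgk1 1.47-fold, Slc2a1 1.44-fold and Pfkp 1.23-fold, and these 4 genes rose by the test used throughout. Hk1, Hk2, Pfkl, Pfkfb3, Aldoa and Ldha were not called in either direction. A gene is called when its adjusted p is under 0.05 in the quasi-likelihood F test of edgeR, with the Benjamini-Hochberg adjustment over all genes tested; log2 fold changes are followed by their standard error (SE).

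For HFD against LFD the log2 fold change of Pkm was 0.98 ± 0.14, adjusted p = 0.000346, and that of Pgk1 was 0.55 ± 0.12, adjusted p = 0.00355. Both held under each alternative processing tried, Pkm between 0.89 and 1.20 and Pgk1 between 0.46 and 0.61. Slc2a1 had a log2 fold change of 0.52 ± 0.16, adjusted p = 0.0185. Without HFD 401 it was 0.40 with adjusted p = 0.0633, and without LFD 406 it was 0.43 with adjusted p = 0.0712, so the call rested on these libraries (range of adjusted p over the alternatives 0.00771 to 0.0712). The rise of Pfkp, 0.30 ± 0.11, adjusted p = 0.0386, was the least firm of the 4. It was lost with upper-quartile scaling (0.21, adjusted p = 0.13), with a correction for GC content (0.27, adjusted p = 0.0543), and without HFD 401 (0.28), HFD 402 (0.32), HFD 403 (0.34), LFD 405 (0.29) or LFD 406 (0.26), over a range of adjusted p from 0.0106 to 0.13. Hk1, at 0.43 ± 0.17, adjusted p = 0.0529, missed the threshold narrowly, and 8 of its 18 alternatives placed it past the threshold (adjusted p from 0.00623 to 0.169). Hk2 went the other way, −0.48 ± 0.22, adjusted p = 0.0899; it was called lower without HFD 402 (−0.74, adjusted p = 0.00819) and with upper-quartile scaling (−0.57, adjusted p = 0.0493), within a range of 0.00819 to 0.24. Pfkl was at −0.21 ± 0.19, adjusted p = 0.391, and Pfkfb3 at −0.16 ± 0.27, adjusted p = 0.639. The values of Aldoa, −0.21 ± 0.18, adjusted p = 0.344, and Ldha, −0.14 ± 0.17, adjusted p = 0.522, were not called either.

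Among all genes 51.5% were called in this comparison (7448 of 14461), 26.5% higher and 25.0% lower, so 4 called members of 10 is no more than the background share, and all 4 were higher. Their groups also did not overlap, and 62.3% of all genes had groups that did not overlap. The median log2 fold change of the 10 genes was 0.08, against −0.03 for all genes. An exact two-sided permutation test on log2 CPM gave p = 0.1 for each of the 4, the smallest p that 3 against 3 libraries allow. Upper-quartile scaling shifted the median of all genes by itself to −0.12 and turned the 3836 higher and 3612 lower calls into 3294 and 4283, and it left Slc2a1, Pgk1 and Pkm higher.

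The second comparison asks what 3 weeks back on the lean diet did in adipocytes. Hk1 fell, to a level 1.54-fold below HFD, and was the 1 member called. Slc2a1, Pfkp, Pgk1 and Pkm, the 4 genes that were higher in obesity, had small negative differences that were not called. Aldoa was higher in each SW library than in each HFD library and also was not called.

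In the test of SW against HFD, Hk1 had a log2 fold change of −0.62 ± 0.17, adjusted p = 0.0216, and the exact permutation test gave p = 0.1, the smallest possible. The call ended without HFD 401 (−0.52, adjusted p = 0.0707), without HFD 403 (−0.58, adjusted p = 0.077) or without SW 407 (−0.53, adjusted p = 0.0591), over a range of 0.00534 to 0.077. Slc2a1 stood at −0.20 ± 0.15, adjusted p = 0.334, and Pfkp at −0.18 ± 0.11, adjusted p = 0.228. Neither passed, although the Pfkp libraries of the groups did not overlap. Differences were −0.14 ± 0.12, adjusted p = 0.37 for Pgk1 and −0.15 ± 0.14, adjusted p = 0.442 for Pkm. Aldoa was at 0.38 ± 0.18, adjusted p = 0.134. Hk2, Pfkl, Pfkfb3 and Ldha lay between −0.24 (Pfkfb3) and 0.11 (Hk2) and were not called, with Ldha at 0.00. The background was 31.4% of all genes called, 15.6% higher and 15.9% lower, so 1 called member of 10, a lower one, is below it. Groups did not overlap for Hk1, Pfkp and Aldoa, 3 of 10, against 48.3% of all genes. The median of the 10 was −0.15 and that of all genes 0.01.

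The third comparison asks what remained different from lean adipocytes after the switch. Pkm was still 1.79-fold higher in SW than in LFD, and Pgk1 was 1.33-fold higher. Slc2a1 lay above LFD in each SW library without being called. The comparison shares its libraries with both of the others, so the values are set side by side and no agreement between them is counted.

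For SW against LFD the log2 fold change was 0.84 ± 0.14, adjusted p = 0.00268 for Pkm and 0.41 ± 0.12, adjusted p = 0.0405 for Pgk1. Pkm kept its call under each alternative tried, between 0.77 and 0.89. The call of Pgk1 was lost in 12 of 18 alternatives, with values from 0.34 to 0.45 and adjusted p from 0.000699 to 0.126. These were no filter on low counts (0.42), a fit of the compared groups alone (0.43), upper-quartile scaling (0.35), and leaving out any single library, with 0.34 without SW 407 as the lowest. Slc2a1 was at 0.32 ± 0.16, adjusted p = 0.195 and Aldoa at 0.16 ± 0.18, adjusted p = 0.582; both had groups that did not overlap and neither passed the threshold. Hk1 was at −0.19 ± 0.17, adjusted p = 0.487, and Pfkp at 0.13 ± 0.11, adjusted p = 0.468. Pfkfb3, Hk2, Pfkl and Ldha ranged from −0.40 to −0.14 and were not called. Of all genes 17.1% were called, 10.9% higher and 6.18% lower, and 2 members of 10 is close to that share. Groups did not overlap for 4 members (Slc2a1, Aldoa, Pgk1 and Pkm), against 36.5% of all genes, and the median of the 10 was −0.01 against 0.00.

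Recovery puts the 3 diets on a single scale: the SW minus HFD difference of mean log2 CPM as a percentage of the LFD minus HFD difference, where 0% is no return and 100% a full return to lean. It is a description without a test, and both differences use the HFD libraries. Pkm recovered 15.9%, and leaving out single libraries moved this between 11.2% and 21.7%. Pgk1 recovered 27.9% (21.6% to 39.6%). For Slc2a1 the value was 38.7%, with 22.3% without HFD 401 and 49.1% without HFD 402. Pfkp recovered 59.5%, with 41.5% without SW 408 and 77.1% without SW 409. These 4 genes are those called in HFD against LFD. The ranges of Pkm and Pgk1 overlap, as do those of Pgk1 and Slc2a1 and of Slc2a1 and Pfkp. Such ranges show the influence of single libraries and are not intervals for the estimates, so the 4 genes were not ranked.

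**Figure D2:**
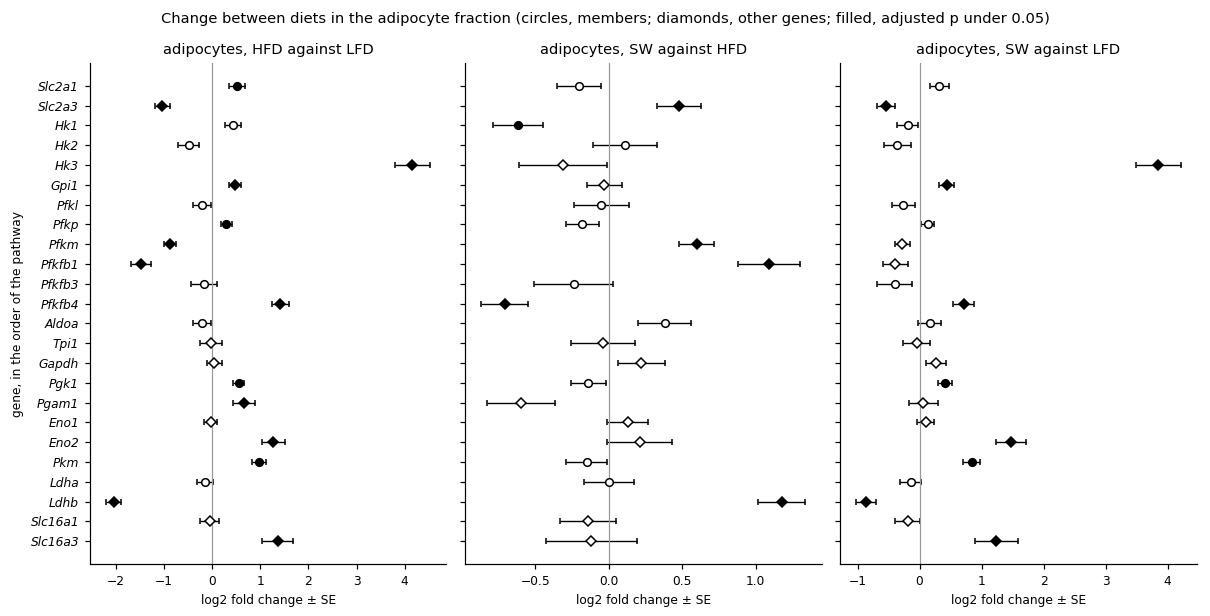
Log2 fold change with its standard error of the 10 genes (circles) and of 14 other genes of the pathway (diamonds) for the 3 diet comparisons in adipocytes; filled symbols are called (adjusted p under 0.05). Pkm is called higher at 0.98 for HFD against LFD and at 0.84 for SW against LFD.

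In SVC the switch from HFD raised Hk1 2.45-fold, and the other 9 genes were not called. The lower Hk1 of SVC HFD and the lower Hk1 of SW adipocytes thus made the 2 fractions move in opposite directions. LFD had 1 library in SVC, so it had no replicate check there and was not tested. Ratios of means to that library are descriptions.

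The log2 fold change of Hk1 in SVC, SW against HFD, was 1.29 ± 0.24, adjusted p = 0.0362. The call ended with the GC correction (0.60, adjusted p = 0.158), without HFD 212 (1.33, adjusted p = 0.0599), without SW 412 (1.21), SW 413 (1.14) or SW 414 (1.43), and without 412 and 413 together (1.11, adjusted p = 0.427), within a range of adjusted p from 3.52e-05 to 0.427. Aldoa was at 0.96 ± 0.29, adjusted p = 0.0614, past the threshold without HFD 411 (1.20, adjusted p = 0.0249) and by DESeq2 (0.98, adjusted p = 0.00163), in a range of 0.00163 to 0.537. Pkm was at 0.55 ± 0.32, adjusted p = 0.221 and Hk2 at −0.96 ± 0.47, adjusted p = 0.164. Pfkl stood at 0.49 ± 0.28, adjusted p = 0.221 and Ldha at 0.12 ± 0.37, adjusted p = 0.826. Without HFD 411 Pfkl was 0.92 with adjusted p = 0.0262 (range 0.0262 to 0.573) and Ldha 0.79 with adjusted p = 0.0452 (range 0.0452 to 0.983), so that library decided whether both were called. Slc2a1, Pfkp, Pfkfb3 and Pgk1 lay between −0.36 (Pfkfb3) and 0.35 (Pfkp) and were not called. Across all genes 17.5% were called, 5.71% higher and 11.7% lower, and 1 member of 10 is near that share; the median of the 10 was 0.24 against 0.03. The number of genes called swung widely: 2849 of 16319 in the fit of all libraries, 77 without 412 and 413, 0 without 412 and 0 without 413. At an unadjusted p under 0.05, edgeR gave 4217 genes without 412 and 5435 without 413, and with all libraries DESeq2 called 5166 genes and limma-voom 1557.

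Relative to the lone SVC LFD library, the log2 ratio of mean CPM in HFD was −1.33 for Hk1, −1.21 for Pfkl, −0.88 for Pfkp and −0.84 for Aldoa. Hk1 and Aldoa were near the LFD value in SW, at 0.06 and 0.20, while Pfkl and Pfkp were below it, at −0.65 and −0.42. Ldha and Pgk1 stood above the LFD library in both other diets, Ldha at 0.95 in HFD and 1.13 in SW and Pgk1 at 0.70 and 0.67. For Pkm the ratios were 0.02 in HFD and 0.64 in SW. The HFD means of these 2 genes pool unlike libraries. Ldha was at 383 CPM in HFD 212 and 930.1 in HFD 411, against 340 in LFD. Pkm was at 878 and 1504 CPM, on either side of the LFD value of 1178. Slc2a1 hardly differed, at −0.19 and 0.03. The LFD library also stood apart in marker genes of other cell types. Mesothelial markers summed to 1106 CPM in LFD, 15.03 and 164.7 in HFD and 154.1, 149.6 and 195.5 in SW. Endothelial markers summed to 1065 CPM in LFD, 325.1 and 219.1 in HFD and 411.5, 372.7 and 308.8 in SW. The part of these cells in the ratios was not tested.

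Comparing the fractions asks in which fraction each gene was higher. Both fractions are mixtures, and macrophage markers were also present in the adipocyte libraries. A difference between fractions therefore does not assign a gene to a cell type. In HFD, Pfkfb3 was 7.88-fold and Hk2 4.28-fold higher in adipocytes than in SVC, and Pfkl and Pgk1 were also higher. Pkm was 1.62-fold higher in SVC. Slc2a1 and Hk1 lay above every adipocyte library in SVC but were not called in this diet.

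For adipocytes against SVC in HFD the log2 fold changes were 2.98 ± 0.34, adjusted p = 8.99e-05 for Pfkfb3 and 2.10 ± 0.34, adjusted p = 0.000915 for Hk2, and both were called under each of 26 alternatives. Pfkl was at 0.92 ± 0.28, adjusted p = 0.0248; its call ended in a fit of the compared groups alone (0.91, adjusted p = 0.119), without SVC HFD 212 (0.53, adjusted p = 0.145) and without adipocyte HFD 402 (0.69, adjusted p = 0.0945), over 0.000929 to 0.145. Pgk1, at 0.45 ± 0.16, adjusted p = 0.0477, lost its call in 14 of 26 alternatives, among them leaving out HFD 411 of SVC (0.44, adjusted p = 0.127), over a range of 0.00143 to 0.18. Pkm was at −0.70 ± 0.22, adjusted p = 0.0324. It was −0.25 without SVC HFD 411 and −0.11 with the GC correction (adjusted p = 0.446 and 0.7, range 0.00127 to 0.7), and also lost its call without adipocyte HFD 401 (−0.68), 402 (−0.66) or 403 (−0.75), with no filter on low counts (−0.68) and in a fit of the compared groups alone (−0.70). Slc2a1 was at −0.48 ± 0.17, adjusted p = 0.0525 and Hk1 at −0.54 ± 0.21, adjusted p = 0.0617. Slc2a1 passed in 5 of 26 alternatives, by DESeq2 (−0.49), by limma-voom (−0.50), with upper-quartile scaling (−0.58), with at least 10 counts in each library (−0.51) and without adipocyte HFD 401 (−0.60), over 0.0253 to 0.54. Hk1 passed in 3, by DESeq2 (−0.55), with upper-quartile scaling (−0.64) and without SVC HFD 212 (−0.65), over 0.0354 to 0.86. Pfkp, Aldoa and Ldha had log2 fold changes of 0.09 ± 0.15, 0.38 ± 0.24 and 0.17 ± 0.30. Without SVC HFD 411 Ldha was 0.95 and past the threshold (adjusted p = 0.0178, range 0.0178 to 0.977), as was Aldoa with the GC correction (0.92, adjusted p = 0.00626, range 0.00626 to 0.744). Of all genes 29.1% were called, 12.9% higher in adipocytes and 16.2% lower, so 5 members of 10, 4 higher and 1 lower, is above the background share. The median of the 10 was 0.28 and of all genes −0.08.

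In SW Hk2 was 8.03-fold and Pfkfb3 7.83-fold higher in adipocytes, while Hk1 was 5.93-fold, Pkm 2.79-fold, Slc2a1 1.88-fold and Pfkp 1.48-fold lower in adipocytes than in SVC. The higher fraction was thus adipocytes for Hk2 and Pfkfb3, and SVC for Hk1, Pkm, Slc2a1 and Pfkp.

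For adipocytes against SVC in SW the log2 fold changes were 3.01 ± 0.31, adjusted p = 2.68e-06 for Hk2 and 2.97 ± 0.29, adjusted p = 1.71e-06 for Pfkfb3. On the SVC side Hk1 stood at −2.57 ± 0.20, adjusted p = 3.21e-07, and this gene, Hk2 and Pfkfb3 kept their calls under each of 26 alternatives. Pkm was at −1.48 ± 0.21, adjusted p = 3.08e-05 and Slc2a1 at −0.91 ± 0.16, adjusted p = 0.000202. The GC correction alone ended both calls, Pkm at −0.31 (adjusted p = 0.098, range 5e-16 to 0.098) and Slc2a1 at −0.09 (adjusted p = 0.678, range 3.43e-08 to 0.678). Pfkp, at −0.56 ± 0.13, adjusted p = 0.00227, was not called without libraries 412 and 413 (−0.43, adjusted p = 0.0991, range 2.17e-07 to 0.0991). Pgk1 was at 0.33 ± 0.14, adjusted p = 0.0528, just short of the threshold, and 8 of its alternatives placed it past (0.00828 to 0.381). Aldoa was at −0.29 ± 0.21, adjusted p = 0.226, and the GC correction reversed it to 0.84 (adjusted p = 0.00122, range 0.00122 to 0.632), so its direction depends on the processing. Pfkl and Ldha had 0.29 ± 0.24 and −0.02 ± 0.27 and were not called; the GC correction gave 1.43 for Pfkl (adjusted p = 7.5e-05, range 7.5e-05 to 0.67). The background was 68.4% of all genes called, 32.8% higher and 35.6% lower, and 6 members of 10, 2 higher and 4 lower, is no more than that. The medians were −0.16 for the 10 and −0.09 for all genes.

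Whether the switch acted differently in the fractions was tested as an interaction, the SW minus HFD change in adipocytes minus that in SVC. Hk1 differed: it fell in adipocytes and rose in SVC. Pfkp differed too, with a lower value in SW adipocytes and a higher value in SW SVC, neither called within its own fraction. The other 8 genes were not called.

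The interaction of Hk1 was −2.02 ± 0.29, adjusted p = 0.00115 in log2 units and was called under each of 26 alternatives, from −2.18 to −1.40. That of Pfkp was −0.65 ± 0.20, adjusted p = 0.0305 and was lost in 11 of 26 alternatives, with no filter on low counts (−0.64), without 412 and 413 together (−0.54) and without any single SVC HFD or SW library but 212, the lowest being −0.39 without SVC HFD 411. It was lost as well without adipocyte HFD 401 (−0.63), 402 (−0.64) or 403 (−0.68) and SW 407 (−0.58) or 408 (−0.59), with adjusted p from 0.00043 to 0.174. Pkm was at −0.79 ± 0.31, adjusted p = 0.0723, Aldoa at −0.67 ± 0.31, adjusted p = 0.131 and Hk2 at 0.91 ± 0.43, adjusted p = 0.139. Pkm passed without SVC HFD 411 (−1.13, adjusted p = 0.00368), by DESeq2 (−0.84, adjusted p = 0.0104) and by limma-voom (−0.83, adjusted p = 0.049), over 0.00368 to 0.6. Aldoa passed without that library (−0.90, adjusted p = 0.0293) and by DESeq2 (−0.73, adjusted p = 0.0303), over 0.0293 to 0.885, and Hk2 without it (1.31, adjusted p = 0.0345) and without SVC SW 413 (1.37, adjusted p = 0.0311), over 0.0311 to 0.565. Slc2a1 was at −0.43 ± 0.24, adjusted p = 0.195. Pfkl, Pfkfb3, Pgk1 and Ldha lay between −0.63 and −0.01; without SVC HFD 411 Pfkl was −1.05 (adjusted p = 0.0248, range 0.0248 to 0.933) and Ldha −0.87 (adjusted p = 0.0263, range 0.0263 to 0.969), and both passed. All genes had 27.1% called, 15.7% higher and 11.4% lower, and 2 members of 10, both lower, is below the background in number; the medians were −0.53 for the 10 and 0.04 for all genes.

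Ratios of isozymes within a library do not depend on scaling between libraries. The balance of GLUT1 to GLUT4, as log2 of Slc2a1 over Slc2a4, was −3.09, −3.07 and −3.66 in LFD adipocytes, −0.17, −1.40 and −0.69 in HFD and −1.95, −2.25 and −2.51 in SW. The 3 diets did not overlap: LFD was lowest, SW between and HFD highest. The mean difference was 2.52 for HFD against LFD, −1.48 for SW against HFD and 1.04 for SW against LFD, each with an exact two-sided permutation p of 0.1, the smallest possible with 3 against 3. In SVC the same ratio was 3.47 and 3.03 in HFD, 0.25 in LFD and 1.51, 1.87 and 1.85 in SW. SVC HFD was highest there, and SW minus HFD was −1.51 (exact permutation p = 0.1, also the smallest for 2 against 3).

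Both sides of this balance moved in obesity. Slc2a4 was at 106, 104 and 126 CPM in LFD adipocytes, 22.1, 38.0 and 27.1 in HFD and 51.1, 72.8 and 86.5 in SW, with no overlap between the diets. It fell in HFD against LFD (−1.96 ± 0.23, adjusted p = 9.68e-05) and rose in SW against HFD (1.28 ± 0.22, adjusted p = 0.00572). In SW against LFD it was at −0.68 ± 0.22, adjusted p = 0.0599 and was not called, while 5 of its alternatives placed it past the threshold (0.0217 to 0.169). SVC Slc2a4 was 2.16 and 2.86 CPM in HFD, 22.5 in LFD and 10.2, 7.53 and 7.19 in SW, and it rose there with the switch (1.64 ± 0.37, adjusted p = 0.0403), a call that rests on SW 412 and on SW 413, without either of which edgeR called 0 genes.

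The hexokinase balance, log2 of Hk2 over Hk1, was 0.36, 0.29 and 0.67 in LFD adipocytes, −1.20, 0.35 and −0.68 in HFD and 0.22, 0.12 and 0.43 in SW. HFD 401 and 403 were low and HFD 402 lay among the lean values, so the groups overlapped (HFD minus LFD −0.95, exact permutation p = 0.2). SVC values were −2.67 and −3.67 in HFD, −4.78 in LFD and −5.80, −5.01 and −5.40 in SW, all far below adipocytes and lowest in SW. The adipocyte minus SVC difference was 2.66 in HFD and 5.66 in SW, each with the smallest exact permutation p, 0.1.

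Among phosphofructokinase subunits, log2 of Pfkp over Pfkm, the muscle-type subunit gene, was 1.93, 1.80 and 1.58 in LFD adipocytes, 3.02, 2.96 and 2.86 in HFD and 2.28, 2.18 and 2.09 in SW. HFD was highest and none of the 3 groups overlapped (HFD minus LFD 1.18, SW minus HFD −0.77, SW minus LFD 0.41, exact permutation p = 0.1 each). In SVC it was 2.65 and 2.73 in HFD, 2.02 in LFD and 2.04, 2.02 and 2.04 in SW, again highest in HFD. Pfkp over Pfkl was −0.11, −0.11 and −0.50 in LFD adipocytes, 0.68, −0.07 and 0.31 in HFD and 0.21, 0.27 and −0.01 in SW. HFD minus LFD was 0.54 (exact permutation p = 0.1), while SW minus HFD, −0.15, turned to 0.04 without HFD 401. SVC values of Pfkp over Pfkl were 1.79 and 0.53 in HFD, 0.77 in LFD and 1.02, 1.16 and 0.82 in SW, and SW minus HFD, −0.16, turned to 0.47 without HFD 212.

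Lactate dehydrogenase differed between the diets in adipocytes. Log2 of Ldha over Ldhb, the subunit gene of the heart-type enzyme, was 3.50, 3.26 and 2.85 in LFD adipocytes, 4.96, 5.15 and 5.13 in HFD and 3.88, 3.68 and 4.16 in SW. The diets did not overlap, with HFD highest and SW between (HFD minus LFD 1.87, SW minus HFD −1.17, SW minus LFD 0.70, exact permutation p = 0.1 each). SVC had 4.72 and 5.91 in HFD, 2.67 in LFD and 4.58, 4.33 and 4.45 in SW, and there too HFD was highest. Since Ldha itself was not called, the shift came with Ldhb, which was at 75.2, 79.0 and 111 CPM in LFD adipocytes, 20.2, 25.0 and 20.2 in HFD and 45.0, 53.8 and 47.5 in SW. Adipocytes minus SVC in HFD was −0.24 for this ratio and 0.36 without SVC HFD 411. For enolase, log2 of Eno1 over Eno3 was 6.07, 5.94 and 6.09 in LFD adipocytes, 6.75, 6.67 and 6.82 in HFD and 6.27, 5.93 and 6.44 in SW, highest in HFD (HFD minus LFD 0.71, exact permutation p = 0.1). SVC values of the enolase ratio were 5.30 and 5.71 in HFD, 6.39 in LFD and 6.13, 5.99 and 5.94 in SW.

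**Figure D3:**
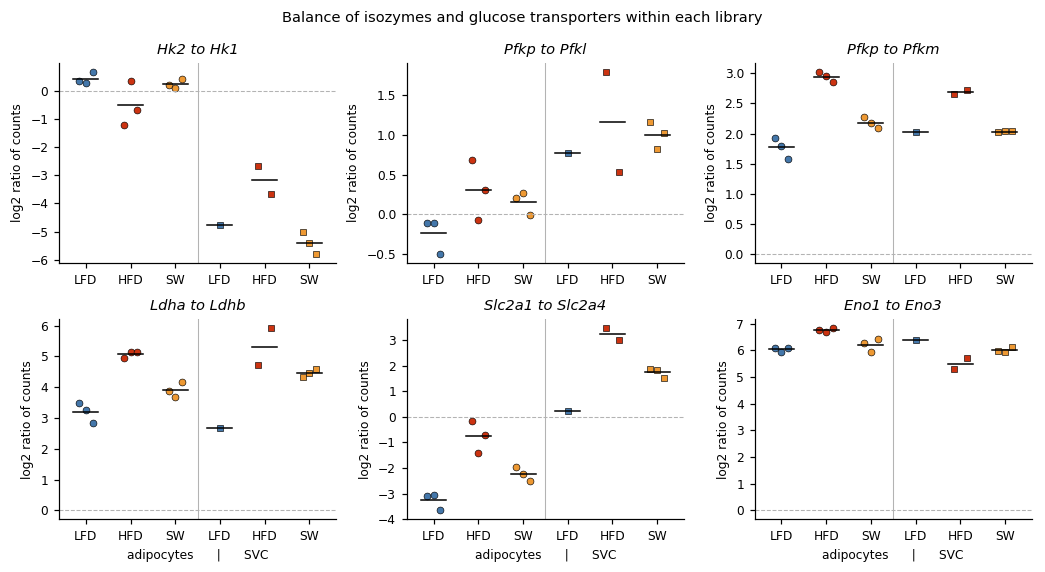
Log2 ratio of the paired genes within each library, by fraction and diet group; each point is 1 library and each bar is a group mean. The ratio of Slc2a1 to Slc2a4 and that of Ldha to Ldhb are lowest in LFD adipocytes, highest in HFD and between in SW.

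Other genes of glycolysis and lactate transport, 27 by list and 24 tested in adipocytes, had 14 called in HFD against LFD, 7 higher and 7 lower (median −0.04 against −0.03 for all genes), beside 51.5% called of all genes. The genes not tested were too low. The widest rise in the list was that of Hk3, a hexokinase known from myeloid cells, at 8.23, 5.34 and 2.38 CPM in LFD, 98.7, 83.1 and 104 in HFD and 104, 69.6 and 55.5 in SW (4.16 ± 0.37, adjusted p = 2.15e-05). Pfkfb4, a second bifunctional enzyme beside Pfkfb3, also rose (1.42 ± 0.17, adjusted p = 0.000101), as did the lactate exporter gene Slc16a3 (1.36 ± 0.33, adjusted p = 0.00713) and the enolase gene Eno2 (1.27 ± 0.24, adjusted p = 0.00186). On the lower side stood Ldhb (−2.04 ± 0.16, adjusted p = 1.43e-05), Pfkfb1 (−1.48 ± 0.21, adjusted p = 0.000306), the transporter gene Slc2a3 (−1.03 ± 0.15, adjusted p = 0.000343) and Pfkm (−0.87 ± 0.12, adjusted p = 0.000287).

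Gapdh was at 1024, 1003 and 1066 CPM in LFD adipocytes, 941, 1175 and 1128 in HFD and 1359, 1227 and 1146 in SW (0.05 ± 0.16, adjusted p = 0.805), with overlap of LFD and HFD, and was not called in HFD against LFD. Tpi1 (−0.02 ± 0.22, adjusted p = 0.956), Eno1 (−0.03 ± 0.14, adjusted p = 0.857) and the monocarboxylate transporter gene Slc16a1 (−0.05 ± 0.19, adjusted p = 0.835) were not called either. Gpi1, the isomerase after hexokinase, rose (0.48 ± 0.12, adjusted p = 0.00695). Pgam1 rose as well (0.66 ± 0.23, adjusted p = 0.0358), but with the counts of its copies added it was 0.11 with adjusted p = 0.515, and its call was also lost by limma-voom (0.62), with upper-quartile scaling (0.56) and without HFD 402 (0.60), HFD 403 (0.63), LFD 405 (0.57) or LFD 406 (0.66), over 0.00401 to 0.515.

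In SW against HFD 8 of the 24 other genes were called, 7 higher and 1 lower (31.4% of all genes called; median 0.06 against 0.01), and in SW against LFD 8, of which 6 were higher and 2 lower (17.1%; median −0.06 against 0.00). Of the 8 in SW against LFD, Gpi1 (0.45, adjusted p = 0.0821), Slc2a3 (−0.57, adjusted p = 0.0768), Slc16a3 (1.32, adjusted p = 0.0834) and Pfkfb4 (0.71, adjusted p = 0.0561) lost their calls without LFD 405. Gpi1 lost its call in 7 of 18 alternatives, Slc2a3 in 9, Slc16a3 in 5 and Pfkfb4 in 1, and Slc2a3 in SW against HFD (0.48) lost its call in 8. Ldhb (1.18 ± 0.16, adjusted p = 0.00347), Pfkfb1 (1.09 ± 0.21, adjusted p = 0.00718) and Pfkm (0.60 ± 0.12, adjusted p = 0.0085) rose with the switch and Pfkfb4 fell (−0.71 ± 0.16, adjusted p = 0.0116). Hk3 did not return, with −0.31 ± 0.30, adjusted p = 0.456 against HFD and 3.85 ± 0.36, adjusted p = 9.61e-05 against LFD. In SVC, SW against HFD, 3 of 26 tested genes of this list were called, 2 higher and 1 lower (17.5% of all genes called; median 0.49 against 0.03): Ldhb (1.08 ± 0.21, adjusted p = 0.0377) and Pfkm (1.00 ± 0.27, adjusted p = 0.0496) rose and Slc16a1 fell (−1.23 ± 0.29, adjusted p = 0.0427). These SVC calls too were lost without SW 412 and without SW 413. Between the fractions, 13 of 26 were called in HFD, 3 higher and 10 lower in adipocytes (29.1% of all genes called; median −0.63 against −0.08), and 23 in SW, 5 higher and 18 lower (68.4%; median −1.25 against −0.09). The interaction called 6 of 26, 2 higher and 4 lower (27.1%; median −0.54 against 0.04).

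The factor HIF-1 is known to activate most of the 10 genes when oxygen is low. Its alpha subunit gene Hif1a was at 84.2, 78.9 and 58.7 CPM in LFD adipocytes, 114, 136 and 121 in HFD and 69.9, 71.2 and 71.1 in SW. HFD was highest without overlap, and LFD and SW overlapped. It rose in HFD against LFD (0.72 ± 0.14, adjusted p = 0.00241) and fell in SW against HFD (−0.79 ± 0.14, adjusted p = 0.00649). In SVC it was 55.8 and 36.6 CPM in HFD, 21.4 in LFD and 7.38, 14.9 and 12.5 in SW, and fell with the switch (−2.10 ± 0.38, adjusted p = 0.0362), a call lost with each other SVC call when SW 412 or SW 413 was left out.

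Of 21 genes of the HIF pathway and its targets outside glycolysis, 11 were called in HFD against LFD, 4 higher and 7 lower (median −0.05 against −0.03), beside 51.5% called of all genes. The higher ones were Hif1a, the carbonic anhydrase gene Car9 (3.40 ± 0.41, adjusted p = 0.000127), Mxi1 (0.66 ± 0.12, adjusted p = 0.00172) and the pyruvate dehydrogenase kinase gene Pdk1 (0.63 ± 0.17, adjusted p = 0.0117; 0.56 with adjusted p = 0.0545 without LFD 405, range 0.0029 to 0.0545). Bnip3 (−1.15 ± 0.23, adjusted p = 0.00217), Ndrg1 (−1.06 ± 0.20, adjusted p = 0.00159), Epas1 (−1.01 ± 0.15, adjusted p = 0.000462) and Egln1 (−0.78 ± 0.10, adjusted p = 0.000186) were lower. SW against HFD had 2 called, Egln1 higher and Hif1a lower (31.4% of all genes called; median 0.04 against 0.01); Egln1, 0.31 ± 0.10, adjusted p = 0.0385, lost its call in 10 of its alternatives, among them 0.25 without HFD 401 (0.0101 to 0.224). SW against LFD had 5, 1 higher and 4 lower (17.1%; median −0.16 against 0.00), of which Ndrg1 lost its call without LFD 404 (−0.78), LFD 405 (−0.78) or SW 407 (−0.68), over 0.00132 to 0.0619, and SVC had 4, 1 higher and 3 lower (17.5%; median −0.33 against 0.03).

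Of 8 pentose phosphate genes, 5 were called in HFD against LFD, 4 lower and 1 higher, where 51.5% of all genes were called (median −0.44 against −0.03): Tkt (−0.84 ± 0.16, adjusted p = 0.00196), Taldo1 (−0.81 ± 0.21, adjusted p = 0.00841), Rpia (−0.47 ± 0.12, adjusted p = 0.00865) and Rpe (−0.41 ± 0.13, adjusted p = 0.0255) were lower, and G6pdx, the entry enzyme, was higher (0.70 ± 0.22, adjusted p = 0.0249). The call of G6pdx ended without HFD 402 (0.55), HFD 403 (0.65) or LFD 405 (0.56), over 0.00651 to 0.0985. That of Rpe ended without HFD 401 (−0.36), HFD 403 (−0.34), LFD 404 (−0.36) or LFD 406 (−0.37) and without a filter on low counts (−0.36), over 0.00631 to 0.104. In SW against HFD 4 of the 8 were called, each higher (31.4% of all genes called; median 0.29 against 0.01). Among them Tkt (0.70, adjusted p = 0.0574), Taldo1 (0.70, adjusted p = 0.0916) and Rpia (0.34, adjusted p = 0.097) lost their calls without HFD 403, Tkt (0.59) and Taldo1 (0.64) without HFD 401, Taldo1 without SW 407 (0.53) and Rpia without SW 409 (0.41), with ranges of adjusted p from 8.37e-05 to 0.0574, 0.00241 to 0.0916 and 0.00594 to 0.097. In SW against LFD the median was −0.04 against 0.00 and none of the 8 passed by edgeR, with 1 at an unadjusted p under 0.05 (17.1% of all genes called). In SVC 2 were called, 1 each way (17.5%; median 0.70 against 0.03).

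Of 13 glycogen genes 11 were called in HFD against LFD, 8 lower and 3 higher (median −0.67 against −0.03). Of all genes 51.5% were called, 26.5% higher and 25.0% lower. The glycogen-targeting subunit gene Ppp1r3c (−1.86 ± 0.22, adjusted p = 0.000121) and the phosphorylase genes Pygl (−1.33 ± 0.19, adjusted p = 0.000383), Pygm (−1.20 ± 0.27, adjusted p = 0.00463) and Pygb (−1.18 ± 0.18, adjusted p = 0.000482) were lower. Among the higher ones were the row named Pgm1 in the count file (ENSMUSG00000029171, which the GRCm38 annotation names Pgm2; 0.83 ± 0.13, adjusted p = 0.000683) and the glycogenin gene Gyg (0.61 ± 0.11, adjusted p = 0.00109). SW against HFD had 3 of 13 called, 1 higher and 2 lower (31.4% of all genes called; median 0.20), SW against LFD 4, 1 higher and 3 lower (17.1%; median −0.36), and SVC 5, 3 higher and 2 lower (17.5%; median −0.17). In SW against HFD the row named Pgm1 (−0.43 and −0.54) and Pygl (0.58 and 0.65) lost their calls without HFD 401 and without HFD 403, and in SW against LFD Gyg (0.45) and Pygm (−0.84) did without LFD 405.

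Cell type markers are compared with 51.5% of all genes called in HFD against LFD, 31.4% in SW against HFD and 17.1% in SW against LFD. All 14 macrophage markers were higher in HFD than in LFD (median 3.48) and in SW than in LFD (median 3.04), and 5 of 14 were lower in SW than in HFD (median −0.41). Their summed level was 1217, 1158 and 700.2 CPM in LFD, 10865, 9435 and 10957 in HFD and 10231, 7409 and 6862 in SW, against 13615 and 24395 in SVC HFD, 9916 in SVC LFD and 23620, 18185 and 25268 in SVC SW. Lyz2 was the most abundant of them in each adipocyte library and no marker was at 0. The LFD libraries were thus low in macrophage transcripts and the HFD and SW libraries high, as with Pkm, Slc2a1 and Pgk1. The part of macrophage transcripts in the values of the 10 genes was not tested, and fewer cells of a type and less RNA per cell cannot be told apart in bulk RNA.

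Of 10 adipocyte markers 7 were lower in HFD than in LFD (median −1.07), 5 were higher in SW than in HFD (median 0.63) and 2 were lower in SW than in LFD (median −0.47). They summed to 29138, 40547 and 46482 CPM in LFD adipocytes, 10931, 18698 and 14051 in HFD and 26361, 25419 and 25434 in SW, with Fabp4 most abundant and none at 0. In SVC they summed to 1307 and 1026 CPM in HFD, 1219 in LFD and 948, 635 and 648 in SW. All 10 were higher in adipocytes than in SVC in HFD and in SW (medians 4.69 and 4.45; 29.1% and 68.4% of all genes called). The macrophage markers separated the fractions less: 5 of 14 were lower in adipocytes than in SVC in HFD (median −0.79) and 11 in SW (median −1.42), and their sum in the HFD adipocyte libraries was near that of the SVC LFD library. Of 6 fibroblast or progenitor markers 3 were higher in HFD against LFD (median 0.91). In SW against HFD 2 were lower (median −0.34), and in SW against LFD 1 was higher (median 0.61). They summed to 2460, 2707 and 1907 CPM in LFD, 6280, 5085 and 6790 in HFD and 3721, 3605 and 3293 in SW adipocytes. Each SW library thus lay below each HFD library, as for Hk1. The LFD libraries were the lowest for these markers, whereas the LFD and SW libraries overlapped for Hk1. Col3a1 or Dcn was the most abundant and none was at 0.

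Endothelial markers, 3 of 5 lower (median −0.78), summed to 1226, 1144 and 938 CPM in LFD adipocytes, 1014, 529 and 523 in HFD and 449, 632 and 597 in SW, with Pecam1 or Cdh5 most abundant and none at 0. Mesothelial markers, 4 of 5 lower (median −1.86), summed to 82.3, 60.0 and 109, 31.2, 7.17 and 16.2 and 18.2, 21.9 and 33.8 CPM in the same order, led by Upk3b or Krt19, with none at 0. Red blood cell markers, 5 of 5 lower (median −1.84), summed to 1875, 2536 and 2889, 680.1, 556 and 618 and 1902, 1175 and 1368 CPM, led by Hbb-bs, with none at 0. Endothelial markers in HFD 401 lay above those of LFD 406, and red blood cell markers in SW 407 above those of LFD 404. The T cell and B cell lists had 0 of 6 and 0 of 4 tested markers called by edgeR in HFD against LFD. They stayed at or below 37.2 and 23.1 summed CPM in adipocytes. Of 3 tested neutrophil markers 1 was higher, with a sum of at most 25.4 CPM and Ly6g at 0 in each adipocyte library. In SW against HFD edgeR called 1 of 6 T cell, 2 of 4 B cell and 4 of 5 red blood cell markers higher. No neutrophil, endothelial or mesothelial marker was called there by edgeR. In SW against LFD 4 of 5 endothelial, 2 of 5 mesothelial and 3 of 5 red blood cell markers were lower. Of the neutrophil markers 1 of 3 was higher, and no T cell or B cell marker was called by edgeR. The part of these cell types in the values of the 10 genes was not tested either.

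In SVC, SW against HFD, 2 of 14 macrophage markers were called, both lower (median −0.02), beside 17.5% called of all genes. Of 10 adipocyte markers 1 was higher and 1 lower (median 1.13), of 5 endothelial markers 1 was higher (median −0.15), and no fibroblast, mesothelial, red blood cell, T cell, B cell or neutrophil marker was called by edgeR. Fibroblast or progenitor markers summed to 10601 and 7440 CPM in HFD, 17458 in LFD and 9286, 12512 and 11486 in SW. Red blood cell markers were 2330 and 45310 CPM in HFD, 65290 in LFD and 40497, 31223 and 47584 in SW, so HFD 212 was the low library. Sperm isozymes of glycolysis (6 genes, chosen after the values were seen) summed to 2.03 and 11.7 CPM in SVC HFD, 7.37 in LFD and 296, 299.6 and 20.2 in SW, and to at most 7.30 CPM in adipocytes. They were high in the same SW libraries, 412 and 413, that held germ cell transcripts, Gapdhs leading in 412 and Ldhc in 413.

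Several of these genes have near-identical copies elsewhere in the genome, and estimated counts divide shared reads between them, so their levels are uncertain to that extent. The copies of Pgk1 held 16, 72 and 41 counts in LFD adipocytes, 8, 87 and 74 in HFD and 130, 89 and 75 in SW. In SVC they held 6 and 43 counts in HFD, 0 in LFD and 271, 593 and 18 in SW, highest again in 412 and 413. Copies of Aldoa reached 175 and 415 counts in those 2 libraries and at most 15 elsewhere. Copies of Pkm and Ldha had at most 2 and 7 counts in any library. Adding the copies left the calls of the 10 genes as they were in each comparison. Gapdh has 260 annotated copies, 152 of them with counts, and these held 97, 189 and 104 counts in LFD adipocytes but 1575, 3325 and 2056 in HFD. With them added, Gapdh was at 0.17 for HFD against LFD (adjusted p = 0.386) and still not called. The strand of the libraries is not stated, so reads of genes on the opposite strand may count toward a gene they overlap.

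Genes that followed a member most closely were sought over the 15 libraries among 9599 genes of mean log2 CPM of at least 3, by the root mean square difference of centred log2 CPM. For Slc2a1, whose own profile has a root mean square of 0.47, the nearest were Zfp384 (0.13), Slc25a12 (0.14), Arhgef2 (0.14), Kif3c (0.14) and Gtf3c2 (0.16). Zfp384 was at 28.4, 29.2 and 27.7 CPM in LFD adipocytes, 39.2, 36.3 and 38.9 in HFD and 26.4, 32.5 and 31.4 in SW. Its HFD libraries were the highest of the adipocyte libraries, and LFD and SW overlapped. For Pkm, with a root mean square of 0.80, the nearest were Ap2m1 (0.10), 4632428N05Rik (0.12), Tep1 (0.12), Ptpn1 (0.13) and Nagpa (0.14). Ap2m1 was at 168, 189 and 161 CPM in LFD adipocytes, 351, 343 and 387 in HFD and 372, 261 and 279 in SW, and at 399 and 717 in SVC HFD, 607 in LFD and 914, 768 and 939 in SW. Its LFD adipocyte libraries were the low ones, as for Pkm.

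Promoters of the 10 genes were searched for ACGTG, a form of the hypoxia response core. Other forms of the core were not searched, so a window without ACGTG may still hold the core. RefSeq promoter windows of 300 bases (250 before and 50 after the start of transcription, build GRCm38.p6, whereas the count tables are labelled mm9) matched all 10 members with 16 windows. The motif ACGTG, searched on both strands (CACGT on the other), lay in 10 of the 16 windows and in 8 of the 10 genes, all but Pfkl and Pfkp. Among 21 other glycolytic genes it lay in 8, in 10 of 33 windows. Over all 32851 promoter windows 19.6% held ACGTG, 7.15% the longer palindrome CACGTG that contains it, and 35.7% GGGCGG. A match is a description of the letters and not evidence of binding. Windows follow for Slc2a1 (chr4:119108495-119108794, 1 match), Pgk1 (chrX:106186850-106187149, 2 matches), Pkm (chr9:59656977-59657276, 2 matches) and Ldha (chr7:46845554-46845853, 5 matches). The first 3 are those of the 4 genes called higher in HFD against LFD that held a match. The other called gene, Pfkp, held no ACGTG. Ldha is shown because it held the most matches while its level was not called. All 4 are on the plus strand, 5′ to 3′, with ACGTG and CACGT in capitals.
Slc2a1: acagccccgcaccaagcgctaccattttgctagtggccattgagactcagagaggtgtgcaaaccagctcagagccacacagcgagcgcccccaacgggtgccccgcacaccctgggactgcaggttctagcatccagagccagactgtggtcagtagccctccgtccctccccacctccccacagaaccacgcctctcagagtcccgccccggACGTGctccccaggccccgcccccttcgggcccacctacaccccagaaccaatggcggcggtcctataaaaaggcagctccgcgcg
Pgk1: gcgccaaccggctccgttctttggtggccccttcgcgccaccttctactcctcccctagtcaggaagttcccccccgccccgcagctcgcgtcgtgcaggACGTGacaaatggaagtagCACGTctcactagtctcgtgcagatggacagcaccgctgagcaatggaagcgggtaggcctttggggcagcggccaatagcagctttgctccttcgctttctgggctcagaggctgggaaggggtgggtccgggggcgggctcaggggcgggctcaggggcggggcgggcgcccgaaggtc
Pkm: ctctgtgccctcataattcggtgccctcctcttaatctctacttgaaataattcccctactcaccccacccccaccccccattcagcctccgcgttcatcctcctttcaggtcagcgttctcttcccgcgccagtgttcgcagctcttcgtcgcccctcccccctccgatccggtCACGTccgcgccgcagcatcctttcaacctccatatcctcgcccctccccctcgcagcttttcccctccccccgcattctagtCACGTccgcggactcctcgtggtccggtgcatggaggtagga
Ldha: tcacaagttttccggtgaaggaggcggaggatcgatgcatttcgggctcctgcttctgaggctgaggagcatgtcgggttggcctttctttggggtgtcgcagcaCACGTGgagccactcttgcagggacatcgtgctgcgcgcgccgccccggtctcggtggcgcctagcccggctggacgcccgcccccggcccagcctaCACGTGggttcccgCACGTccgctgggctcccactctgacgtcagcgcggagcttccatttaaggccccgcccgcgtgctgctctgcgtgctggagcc
The second Pkm window, chr9:59656326-59656625, and the second Ldha window, chr7:46846832-46847131, held no match. In Pgk1 the pair of matches lay in opposite orientations, and in Ldha CACGTG lay at 2 sites, each counted once per strand.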

How the data were processed

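The authors deposited gene tables of expected counts (RSEM estimated counts per gene), rounded to whole numbers, for adipocytes and SVC. Per the submitters' notes, reads were mapped with Bowtie2 to mm9 transcripts, counted with RSEM and compared with limma; no versions are given. The labels list 26 records of 18 libraries, 8 of them with 2 runs; 15 libraries could be matched to a diet and 3 SVC columns whose names carry no diet were not used here. Counts were fitted in edgeR 4.0.16 (R 4.3.3; limma 3.58.1, DESeq2 1.42.0) with TMM factors and a filter on low counts (filterByExpr, minimum count 10), in 1 fit of the 9 adipocyte libraries, 1 of the 6 SVC libraries and 1 of all 15, whose factors also scale the CPM. The quasi-likelihood F test was adjusted by Benjamini-Hochberg over all genes tested, threshold 0.05. Single genes and ratios were also compared by exact two-sided permutation of libraries. All 10 members passed the filter in each fit. The code was checked on simulated data. Levels were tabulated in pandas 2.3.3 with numpy 2.4.6, and figures drawn in matplotlib 3.10.9 (Python 3.11.15). Lengths and positions came from the GRCm38 annotation. Counting floors cover counting error only.

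Alternatives were RLE and upper-quartile factors, DESeq2, limma-voom, no filter, at least 10 counts in every library, only the compared groups, a GC offset, copies added to their parent gene, leaving out each library, and, added after seeing the data, leaving out SVC SW libraries 412 and 413 together and leaving out mitochondrial genes. The members and lists were chosen with earlier results of these data known. Named genes were the members, 12 glycolytic, transport and HIF genes always given, up to 4 called genes in each direction from each pathway list for HFD against LFD in adipocytes, and the 5 genes nearest to Slc2a1 and to Pkm. Lists of germ cell, sperm isozyme and epididymal genes were added after their values were seen.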

Additional observations from a re-analysis of the deposited data

Results flagged for a closer look

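In 2 of the 10 genes adipocytes and SVC did not respond alike to the diet switch, by the interaction term of edgeR; this is below the 27.1% of all genes called. The difference, adipocytes minus SVC, was −2.02 ± 0.29, adjusted p = 0.00115 (SE, Benjamini-Hochberg adjusted p) for Hk1, which fell in adipocytes in 3 of 3 SW libraries relative to each HFD library and rose in SVC in 3 of 3. It was −0.65 ± 0.20, adjusted p = 0.0305 for Pfkp, whose adipocyte libraries were lower in SW than in HFD in 3 of 3 and whose SVC libraries were higher in 3 of 3. SVC HFD had 2 libraries, and library 411, with 33.5% of its counts from mitochondrial genes, was among them. With those genes left out both differences were still called. That alternative moved the number of genes called only from 4727 to 4721, so it cannot show what library 411 contributes. Without library 411 Pfkp was at −0.39 with adjusted p = 0.121, and its call was lost in 11 of 26 alternatives, while Hk1 was called under each of the 26. The part of cell composition in either difference was not tested.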

How the results depend on the processing

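No paired analysis was possible because the replicate numbers in the columns are in no label. Fold changes of the 10 genes gave 780 values with 1 library left out: 711 stayed on their side of the threshold, 48 lost the call and 21 gained it. In 32 values the sign changed without a call. The other alternatives gave 710 values: 668 stayed on their side, 20 lost the call, 21 gained it and 1 reversed with a call, Aldoa for adipocytes against SVC in SW, 0.84 with the GC offset. The sign changed without a call in 23. For the other named genes 867 of 945 left-out values and 915 of 942 others stayed on their side, and the sign changed without a call in 27 and 15. Of 204 ratio values with a library left out 189 moved less than 1 SD, 12 moved more and 3 reversed: Pfkp to Pfkl for SW against HFD, which ran from −0.34 to 0.04 (without HFD 401) in adipocytes and from −0.79 to 0.47 (without HFD 212) in SVC, and Ldha to Ldhb for the fractions in HFD, from −0.84 to 0.36 (without SVC HFD 411). All 36 recovery values moved less than 1 SD. The cause was not tested in these cases or in those below.

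The number of members called and of all genes called depended most on the SVC libraries. With 1 library left out, members called ranged from 2 to 5 for HFD against LFD in adipocytes, 0 to 1 for SW against HFD, 1 to 1 for SW against LFD, 0 to 4 in SVC, 2 to 5 and 6 to 7 between the fractions in HFD and in SW, and 1 to 6 for the interaction. Genes called ranged from 5757 to 8331, 1522 to 4554, 1678 to 2587, 0 to 6213, 2528 to 7044, 10690 to 12436 and 2936 to 6622 in the same order. For SW against LFD 1 member was called without a filter, in a fit of the compared groups alone and with upper-quartile factors. In SVC the GC offset called 0 members and 0 genes by edgeR (4560 genes at an unadjusted p under 0.05), DESeq2 2 members and 5166 genes, and limma-voom 1557 genes; without libraries 412 and 413 it was 0 members and 77 genes (2249 at an unadjusted p under 0.05). Between fractions in HFD 3 members were called without a filter, and 2 members and 2030 genes in a fit of the compared groups. The interaction called 1 member without a filter, 4 by DESeq2, 1 member and 3151 genes without 412 and 413, and 2247 genes with the GC offset. A lone library left in a group was assumed to vary as the others do.

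Over the alternatives the median log2 fold change of all genes ran from −0.12 (upper-quartile factors) to 0.00 for HFD against LFD in adipocytes, from −0.18 (upper-quartile factors) to 0.01 for the fractions in HFD, from −0.15 to 0.22 (without 412 and 413) for the fractions in SW, from −0.07 to 0.25 (without 412 and 413) for the interaction and from −0.07 (without 413) to 0.15 (without HFD 212) in SVC. Depth limits the finer statements: Hk2 in SVC rested on as few as 26 counts. The groups compared held 2 or 3 libraries each, and the smallest difference that they could show was not tested. Library preparation and cell yield are in no label. The type of sequencing run is labelled by replicate, but the count columns cannot be matched to labelled replicates. Every adipocyte replicate had a paired-end run. Some adipocyte LFD and HFD replicates also had a single run, and no adipocyte SW replicate did. Every SVC SW replicate had both a paired-end and a single run. Some SVC HFD and SVC LFD replicates had a single run alone. Run type thus differed between the fractions and, within each fraction, between diets. The part of preparation, yield and run type was not tested.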
